A study of Mus musculus with 6 samples.

Results

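Interferon-stimulated genes are a module of 39 mouse genes fixed by symbol, of which 37 were measured among the 32285 genes of the files. No measured difference was the rule for the list, but it was chosen with earlier results of these data known. Mx1 and Mx2 were not analysed here. The 37 measured members were followed in single-cell RNA sequencing of heart cells other than cardiomyocytes, in the cell classes of each library. The wild-type (WT) libraries came from strain C57BL/6JRj and the knockout (KO) libraries from strain B6.Cg-Trpm4tm1.2-PG, in which Trpm4, a cation channel opened by intracellular calcium, is targeted. Male mice aged 8 to 12 weeks had sham surgery 24 h before sampling, or ligation of the left anterior descending (LAD) coronary artery, which causes a myocardial infarction, 24 h or 72 h before. No sham library at 72 h was analysed, so time after ligation and time after surgery cannot be told apart at 72 h. Each of the 6 combinations of genotype and surgery was 1 library of live-sorted ventricular cells pooled from 4 mice. With 1 library a group, no difference has a replicate check, no test was made, and every interval below is a 95% interval for counting error only.

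Interferons are secreted proteins that alert cells to viral or self nucleic acid. Type I interferons act through Ifnar1 and Ifnar2, whose kinases lead to a complex with Stat2 and Irf9 that binds the interferon-stimulated response element (ISRE) in the promoters of these genes. Their products sense RNA, block translation, trap virus particles and, as in the case of Usp18, shut the pathway down again. In the infarcted heart the response is known from infiltrating monocytes, macrophages and neutrophils that take up nucleic acid from dying cells.

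After filtering, 32085 of 34940 deposited cells were kept, 3365 to 6824 a library, from 20995280 to 45649061 deposited unique molecular identifiers (UMIs, each standing for 1 captured RNA molecule) a library. The KO ligation 72 h library stood apart, with a median of 1351 UMIs per kept cell against 3076 to 8011 in the other libraries. Its cells also made up over 75% of 5 of the 34 clusters, and most of 7. Trpm4 had 52 to 260 UMIs per library and was lower in KO than WT at each time (5.82 against 8.48 CPM, counts per 1000000, in sham, 3.39 against 5.48 at ligation 24 h, 2.56 against 4.23 at ligation 72 h). A tag at the transcript's end can lie outside a deleted part, so the remaining counts do not check the genotype labels. Between 3 and 13 cell barcodes were shared by any pair of libraries. Classes are named "like" because clusters were rebuilt here, with the members and the pathway genes left out of the genes used for clustering, and named from marker genes.

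The ISRE was searched as GAAA followed after any 2 bases by GAAA, on both strands, in the 300 bases from 250 before to 50 after each RefSeq start site of GRCm38.p6. It was present in 18 of the 30 members matched to a promoter (60%) and in 1079 of 27025 genes (3.99%). The gamma-activated site, searched as TTCNNNGAA, was present in 5 of 30 members (16.7%) and in 9.55% of genes. The promoters of 6 members on which the results below turn are shown as the 200 bases before the start site, read in the direction of transcription, with ISRE matches on either strand in capitals.
Isg15, chr4:156200819-156201018, minus strand: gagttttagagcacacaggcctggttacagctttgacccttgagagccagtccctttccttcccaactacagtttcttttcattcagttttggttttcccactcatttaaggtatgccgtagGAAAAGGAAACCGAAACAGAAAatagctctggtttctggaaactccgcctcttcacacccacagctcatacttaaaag
Ifit3, chr19:34583329-34583528, plus strand: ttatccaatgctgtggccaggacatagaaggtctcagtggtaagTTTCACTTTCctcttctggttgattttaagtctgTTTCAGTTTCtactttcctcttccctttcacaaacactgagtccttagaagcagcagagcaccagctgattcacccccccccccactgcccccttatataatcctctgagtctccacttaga
Rsad2, chr12:26456453-26456652, minus strand: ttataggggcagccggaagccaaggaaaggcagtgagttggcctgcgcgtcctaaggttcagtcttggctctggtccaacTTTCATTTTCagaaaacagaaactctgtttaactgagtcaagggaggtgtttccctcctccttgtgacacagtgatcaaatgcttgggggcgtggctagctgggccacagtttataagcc
Bst2, chr8:71537473-71537672, minus strand: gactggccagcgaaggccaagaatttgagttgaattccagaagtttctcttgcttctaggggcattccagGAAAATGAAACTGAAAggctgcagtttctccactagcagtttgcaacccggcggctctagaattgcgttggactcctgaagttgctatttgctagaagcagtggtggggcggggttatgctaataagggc
Ifi205, chr1:174031756-174031955, minus strand: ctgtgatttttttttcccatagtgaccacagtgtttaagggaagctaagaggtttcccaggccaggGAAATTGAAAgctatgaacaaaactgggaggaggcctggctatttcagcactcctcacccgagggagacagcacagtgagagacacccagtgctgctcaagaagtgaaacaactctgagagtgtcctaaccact
Irf7, chr7:141266425-141266624, minus strand: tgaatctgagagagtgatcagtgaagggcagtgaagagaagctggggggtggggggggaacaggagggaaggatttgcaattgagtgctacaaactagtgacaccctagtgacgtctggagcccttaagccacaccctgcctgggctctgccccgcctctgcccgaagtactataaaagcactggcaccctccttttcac
In these 200 bases Isg15 held 3 overlapping matches, Bst2 2 overlapping matches, Ifit3 2 separate matches, and Rsad2 and Ifi205 1 each (Ifi205 had 2 in the 300 bases searched). Irf7 held 0 matches to these letters in the window, as did Ifit2, Oasl1, Oasl2, Xaf1 and Phf11d among others. In the monocyte/macrophage-like cells described below, the median log2 ratio of ligation 72 h to 24 h in WT was 1.29 over the 18 members with a match and 1.54 over the 12 without. Members with and without these letters therefore both had medians above that of all genes, 0.06. For KO against WT at ligation 72 h the medians were −0.43 with a match and −0.39 without.

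For each class and library the UMIs of all cells were added up and scaled to CPM of the class total. Levels across classes depend on those totals, and the 4 classes with at least 50 cells in all 6 libraries are monocyte/macrophage-like, neutrophil-like, endothelial-like and fibroblast-like. Neutrophil-like cells held the highest CPM of a member, in at least 4 of the 6 libraries, for 15 members, endothelial-like cells for 15, monocyte/macrophage-like cells for 2 and fibroblast-like cells for 1. For Usp18, Ifit3, Parp14 and Ifi27l2a the class with the highest CPM was so in 3 of the 6 libraries. For 8 members every neutrophil-like level lay above every level of the other 3 classes: Irf9, Ddx58 (the RNA sensor RIG-I), Oas2, Oas3, Oasl1, Oasl2, Isg20 (an exonuclease) and Trim30a. For Gbp3, a guanylate-binding protein, and Ifi44 every endothelial-like level lay above all others. Dhx58, a regulator of the RNA sensors, was the member set apart in this way in monocyte/macrophage-like cells.

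Ifi205, a DNA-binding protein of the p200 family, was the member set apart in fibroblast-like cells. Its levels there were 260 CPM in WT sham, 191 in KO sham, 209 in WT ligation 24 h, 143 in KO ligation 24 h, 49.4 in WT ligation 72 h and 68.9 in KO ligation 72 h. It was at its highest in the sham libraries and at its lowest at ligation 72 h in both genotypes, with a log2 ratio of 72 h to 24 h of −2.08 (interval −2.35 to −1.82) in WT and −1.05 (−1.31 to −0.80) in KO. In the other 3 classes it stayed at or below 23 CPM in every library. The fibroblast-like class of KO ligation 72 h also held C1qa, C1qb and C1qc at 35.5% of their macrophage level, against 0.162% in WT. CPM are of a class total that includes such RNA, and the KO fall is not corrected for it. The clusters that made up the fibroblast-like class differed between those times: sham and 24 h cells were mostly in cluster 13, and 91 of 143 WT and 842 of 1263 KO cells at 72 h were in cluster 12, led by Cthrc1, Col1a1 and Postn.

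**Figure D1:**
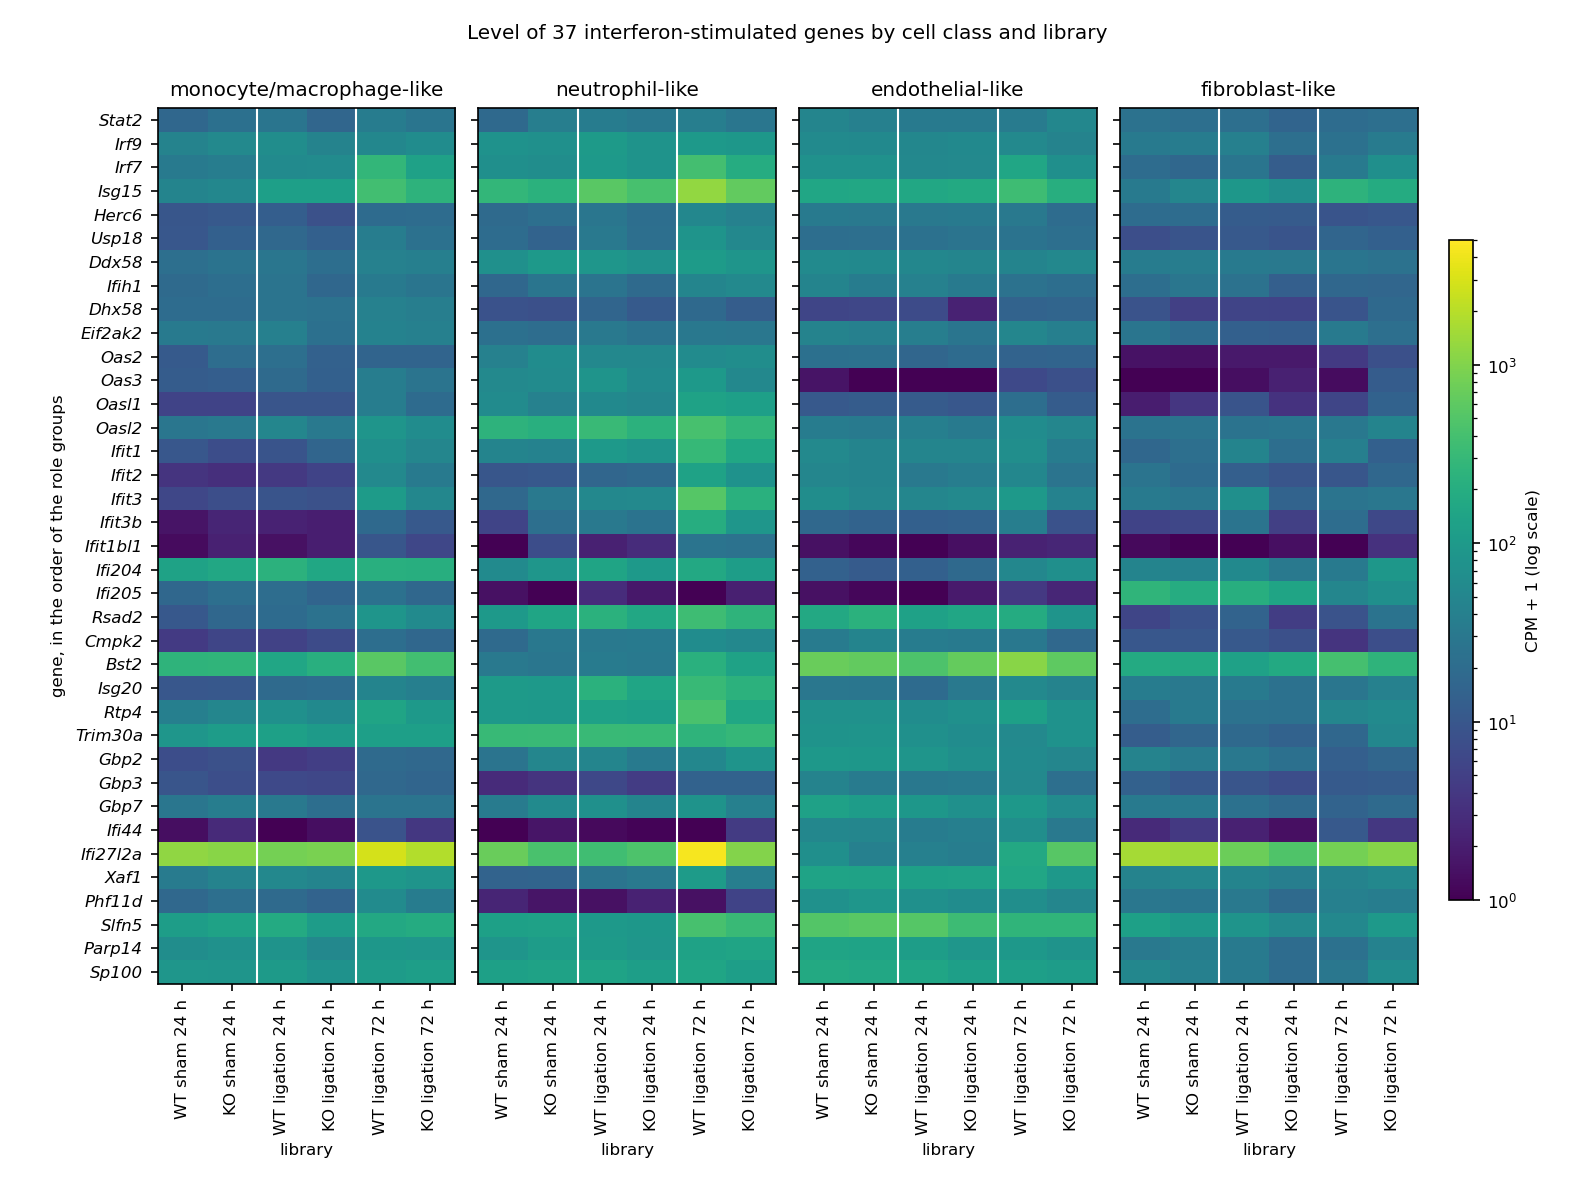
Level (CPM + 1, colour on a log scale) of each measured member, by role group, in each of the 6 libraries for the 4 main classes. The IFIT genes, Isg15 and Irf7 are brightest at ligation 72 h in the neutrophil-like and monocyte/macrophage-like panels, while Ifi205 stands out in fibroblast-like cells of the sham and 24 h libraries.

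Summed over the 37 members, the level in monocyte/macrophage-like cells was 2454 CPM in WT sham, 2493 in WT ligation 24 h and 6022 in WT ligation 72 h. In KO it was 2506, 2278 and 4258. In neutrophil-like cells it was 2915, 3690 and 11277 in WT, and 2808, 3121 and 5312 in KO. The 72 h library was the highest of its genotype in both classes, and KO was below WT there. Ifi27l2a, a small interferon-induced membrane protein, held 47.2% of the member UMIs in monocyte/macrophage-like cells of WT ligation 72 h. Without it the summed levels in that class were 1227, 1654 and 3178 in WT and 1410, 1365 and 2416 in KO, in the same order of libraries. In neutrophil-like cells without it they were 2191, 3327 and 6760 in WT and 2375, 2655 and 4298 in KO.

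At 24 h after ligation 15 members were higher than in sham in monocyte/macrophage-like cells of WT and 6 in KO, a difference between genotypes that was not tested. A member or gene was counted where it had at least 20 UMIs over the pair of libraries, and as higher or lower where it differed at least 1.5-fold. Against sham, 15 of 34 members in WT were higher, where 6.86% of all genes were, and 3 were lower, where 16.2% of all genes were. The member median log2 ratio was 0.51 and that of all genes −0.14. In KO, 6 of 37 were higher and 5 lower, against 4.82% and 28.1% of all genes, with a median of −0.15 against −0.30.

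Isg15, a ubiquitin-like protein joined to other proteins, stood at 46.3 CPM in WT sham, 51.3 in KO sham, 123 in WT ligation 24 h and 123.2 in KO ligation 24 h. Both ligation libraries were above both sham libraries, with a log2 ratio of 1.41 (1.26 to 1.56) in WT and 1.26 (1.12 to 1.42) in KO. Irf7, the transcription factor that amplifies the response, stood at 32.2 CPM in WT sham, 35.7 in KO sham, 58.7 in WT ligation 24 h and 59.6 in KO ligation 24 h. Its log2 ratio to sham was 0.87 (0.67 to 1.07) in WT and 0.74 (0.56 to 0.93) in KO.

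All 4 measured members of the oligoadenylate synthetase (OAS) family were at least 1.5-fold higher at 24 h in WT, as were 2 of 3 members of the ISG15 system and 0 of 4 RNA sensors. Oas2, which makes the messenger that activates an RNA-degrading enzyme, stood at 10.2 CPM in WT sham, 19.9 in KO sham, 21.1 in WT ligation 24 h and 13.0 in KO ligation 24 h. It was thus higher after ligation in WT, by 1.04 on the log2 scale (0.70 to 1.40), and lower after ligation in KO (−0.62, −0.91 to −0.33). Bst2 (tetherin, which holds virus particles on the cell) was lower at 24 h in WT, 154 against 255 CPM, a log2 ratio of −0.73 (−0.82 to −0.63). Of 3 guanylate-binding proteins 2 were lower in WT and 2 in KO. Gbp2 had few counts and was lower at 24 h in both genotypes, with a log2 ratio of −1.02 (−1.72 to −0.36) in WT and −0.92 (−1.44 to −0.40) in KO.

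In neutrophil-like cells 18 of 33 members were at least 1.5-fold higher at 24 h than in sham in WT, against 11.3% of all genes, and 1 was lower, against 28%. The medians were 0.62 for the members and −0.26 for all genes. In KO 6 of 34 were higher and 2 lower, against 8.59% and 20.7%, with medians of 0.15 and −0.20. Ifit3, of the family that binds foreign RNA ends, stood at 16.8 CPM in WT sham, 30.6 in KO sham, 52.2 in WT ligation 24 h and 53.9 in KO ligation 24 h. The 2 genotypes were near each other after ligation and apart in sham, so the log2 ratio was 1.63 (1.12 to 2.18) in WT and 0.81 (0.39 to 1.27) in KO. Ifi27l2a was the member lower by the fold in WT, at 362.4 against 724.9 CPM. The clusters also differed: cluster 1, led by Wfdc21, Retnlg and Il1r2, held 75.6% of WT and 64.7% of KO neutrophil-like cells at ligation 24 h, and 6.12% and 15.6% in sham.

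Endothelial-like cells did not show this rise, and their member medians lay below those of all genes. At 24 h against sham 0 of 34 members were higher by the fold and 4 were lower in WT, against 11.6% and 10.6% of all genes. The medians were −0.22 for the members and 0.02 for all genes. In KO 1 was higher and 5 were lower, against 12.1% and 9.5%, with medians of −0.25 and 0.02. In fibroblast-like cells 7 of 33 were higher and 8 lower in WT, against 13.2% and 18.4%, and 0 of 32 were higher and 13 lower in KO, against 11.8% and 29.1%. Isg15 was higher at 24 h in fibroblast-like cells of WT, 90.4 against 31.5 CPM (56.3 CPM without the 1 cell that held 89 of its 233 UMIs), and Ifi27l2a was lower, 742.1 against 1601 CPM. The other higher members in WT also had UMIs of ligation 24 h gathered in 1 cell per gene. That cell held 88 of 174 UMIs of Ifit3, 32 of 66 of Ifit3b and 58 of 118 of Ifit1. It held 22 of 36 for Rsad2, 12 of 21 for Oasl1 and 7 of 45 for Trim30a. The count of 7 without such cells is not given.

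At 72 h after ligation the IFIT genes stood far above their 24 h levels in both infiltrating myeloid classes. In monocyte/macrophage-like cells 25 of 37 members were at least 1.5-fold higher than at 24 h in WT, against 24.4% of all genes, and 0 were lower, against 17.3%. In KO 31 of 37 were higher, against 23.2%, and 0 were lower, against 7.27%. The member median was 1.01 in WT, beside 0.06 for all genes, and 0.99 in KO, beside 0.16. All 5 IFIT members were higher in both genotypes, with a median log2 ratio of 3.78 in WT and 2.78 in KO. All 3 members of the ISG15 system (Isg15, Usp18 and the ligase Herc6) were higher as well, and so were 3 of 4 OAS members. Neither of the p200 members passed the fold.

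Ifit3 in monocyte/macrophage-like cells stood at 5.16 CPM in WT sham, 6.71 in KO sham, 8.20 in WT ligation 24 h, 7.26 in KO ligation 24 h, 105.3 in WT ligation 72 h and 50 in KO ligation 72 h. The 4 earlier libraries lay together and both 72 h libraries lay far above them. Its log2 ratio of 72 h to 24 h was 3.68 (3.34 to 4.05) in WT and 2.78 (2.5 to 3.07) in KO. Irf7 stood at 283.2 CPM in WT ligation 72 h and 129.9 in KO ligation 72 h, a log2 ratio to its 24 h level of 2.27 (2.14 to 2.40) and 1.12 (1.01 to 1.24). Isg15 reached 374.1 and 247.1 CPM, a log2 ratio of 1.60 (1.51 to 1.70) and 1.0 (0.92 to 1.09).

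Bst2, lower at 24 h than in sham in WT, was the other way round at 72 h, with 557.7 CPM in WT and 375.5 in KO. Ifi44 was listed at 0 UMIs in WT ligation 24 h and at 7.89 CPM in WT ligation 72 h, at least 22.5-fold higher when the 0 is set to 3 counts. Oas2 and Irf9 did not follow the other members in WT, with log2 ratios of −0.52 (−0.77 to −0.26) and −0.32 (−0.47 to −0.18). Slfn5, a nuclear protein of the Schlafen family, stood at 181 CPM in WT ligation 24 h and 169 in WT ligation 72 h. The cluster with the most cells of the class in WT was cluster 4, led by Ccl24, Arg1 and Fn1, at 24 h (308 of 666 cells) and cluster 3, led by Ccl8, Gpnmb, Trem2 and C1qb, at 72 h (51.8%). In KO ligation 72 h it was cluster 9 (42.8%), led by Mpeg1, Gm42418 and Lars2, and 1088 of that cluster's 1177 cells came from that 1 library.

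In neutrophil-like cells 19 of 34 members were higher at 72 h than at 24 h in WT, against 52.1% of all genes, and 0 were lower, against 12%. In KO 20 of 34 were higher, against 50.7%, and 0 lower, against 10.4%. The counts of higher members were thus near the background, since most genes of this class had a higher CPM at 72 h, and the member medians of 0.91 in WT and 0.70 in KO lay beside 0.64 and 0.60 for all genes. The IFIT genes stood beyond that shift, with all 5 higher and a median of 3.12 in WT and 2.04 in KO. Ifit3 stood at 535.5 CPM in WT ligation 72 h and 221.5 in KO ligation 72 h, a log2 ratio to 24 h of 3.36 (3.15 to 3.58) and 2.04 (1.79 to 2.28). In KO ligation 72 h 1 of 441 cells held 48 of the 196 Ifit3 UMIs, and 1 cell 44 of the 141 of Ifit1. In WT ligation 72 h the top cell held 43 of 1096 and 34 of 612. The intervals do not cover such gathering in 1 cell. Ifi27l2a stood at 362.4 and 465.6 CPM at 24 h in WT and KO and at 4516 and 1015 at 72 h. WT ligation 72 h was by far the highest of the 6 libraries for this gene, with a log2 ratio of 3.64 (3.56 to 3.72) in WT and 1.12 (1.02 to 1.23) in KO. Trim30a, an inhibitor of inflammatory signalling, was among the members that did not follow, at 315 CPM in WT ligation 24 h and 257 in WT ligation 72 h.

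In endothelial-like cells 15 of 34 members were higher at 72 h than at 24 h in WT, against 11.9% of all genes, and 2 were lower, against 24.1%. In KO 4 were higher and 5 lower, against 13.9% and 21.3%. The median was 0.44 in WT and −0.23 in KO, beside −0.15 and −0.11 for all genes, and this difference between genotypes was not tested. Isg15 stood at 165.3 CPM in WT ligation 24 h, 173.4 in KO ligation 24 h, 357.2 in WT ligation 72 h and 204.1 in KO ligation 72 h. WT ligation 72 h was the high library, with a log2 ratio of 1.11 (0.94 to 1.28) in WT and 0.24 (0.01 to 0.46) in KO. Slfn5 was lower at 72 h in WT, 265 against 529 CPM, a log2 ratio of −1.0 (−1.15 to −0.84). In fibroblast-like cells 7 of 34 were higher and 10 lower in WT, against 13.1% and 34.8%, and 23 of 35 were higher and 2 lower in KO, against 18.6% and 24.1%. Both counts turned under alternatives, for which no share of all genes is given. The WT count also includes 1 cell of ligation 24 h, described below, with 16.7% of the member UMIs other than those of Ifi27l2a. Without the clusters made mostly of KO ligation 72 h cells, among them cluster 12, which held 91 of the 143 WT cells, 25 of 33 were higher and 0 lower in WT (median 1.24, from −0.22, on 50 WT cells at 72 h). With the myeloid RNA subtraction described below, 5 of 29 were higher and 9 lower in KO, whose fibroblast-like cells held the macrophage genes C1qa, C1qb and C1qc at 35.5% of their macrophage level.

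**Figure D2:**
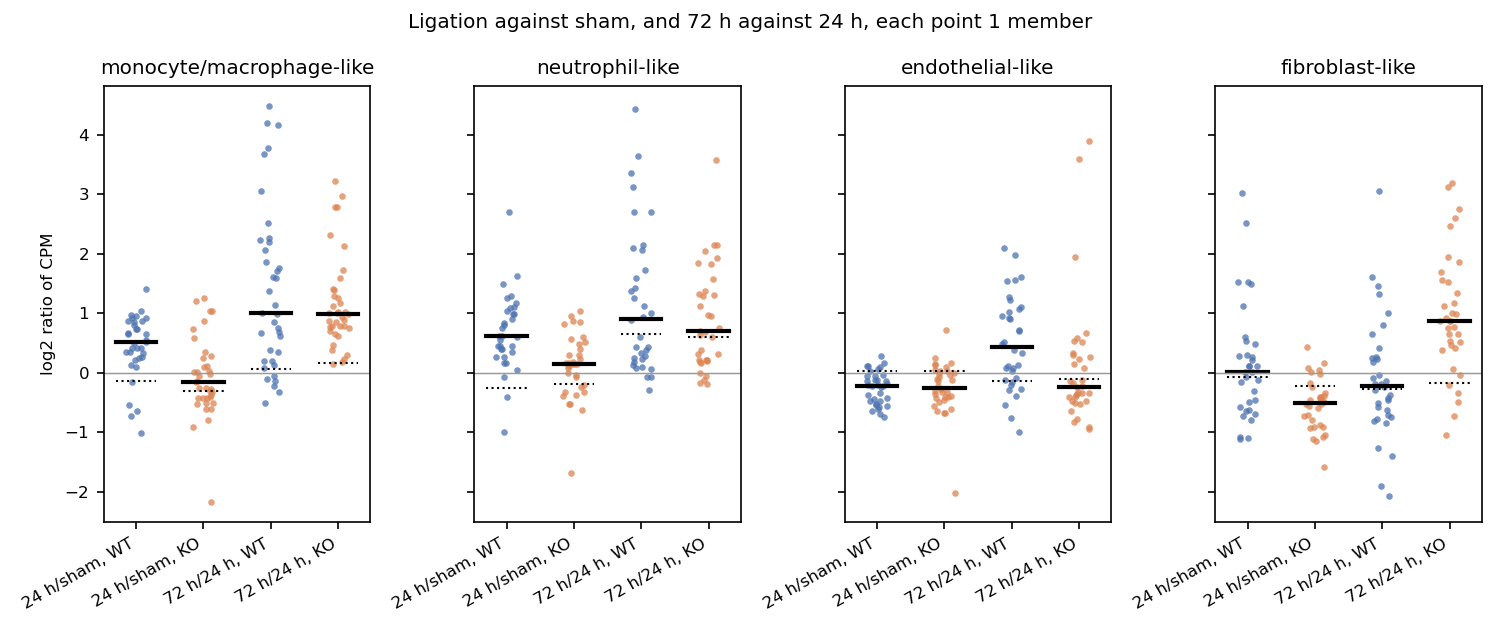
Log2 ratio of CPM for ligation 24 h against sham and for ligation 72 h against ligation 24 h in each genotype, 1 point per member, in the 4 main classes. The thick line is the member median and the dotted line the median of all genes, and the highest points of the 72 h comparisons in the 2 myeloid panels are mostly IFIT genes. The 24 h libraries enter both comparisons of a genotype.

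At ligation 72 h the member median was lower in KO than in WT in both myeloid classes and in endothelial-like cells. The KO and WT libraries of 72 h compared here are the same that entered the comparisons over time. In monocyte/macrophage-like cells 11 of 37 members were at least 1.5-fold lower in KO, against 3.94% of all genes, and 0 were higher, against 11%. The median was −0.41 and that of all genes 0.03. With the clusters made mostly of KO ligation 72 h cells left out, the median was −0.45 and 14 of 37 were lower. That count has no share of all genes beside it. Over the 10 processing alternatives run for this class, among them cells thinned to equal depth, the median lay between −0.46 and −0.30.

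Irf7 was the signalling member lower in KO, at 129.9 against 283.2 CPM (log2 ratio −1.12, −1.21 to −1.04). Irf9, which carries the ISRE-binding complex to DNA, was instead at 61.2 CPM in KO and 50.5 in WT, a log2 ratio of 0.28 (0.14 to 0.41). Of the IFIT family 4 of 5 members were lower by the fold, with a median of −0.82, and Ifit3 had a log2 ratio of −1.07 (−1.21 to −0.94). Ifit1 did not pass the fold, at 49.6 against 68.1 CPM (−0.46, −0.60 to −0.31).

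Isg15 was at 247.1 CPM in KO and 374.1 in WT (−0.60, −0.66 to −0.53), and Usp18, which removes Isg15 from proteins and damps the receptor, was at 23.2 and 36.5 CPM (−0.65, −0.86 to −0.44). Oasl1 was the OAS member lower by the fold, at 18.9 against 35.6 CPM (−0.91, −1.14 to −0.69). Ifi44 had the lowest ratio, −1.39 (−1.99 to −0.84), on few counts, 3.01 against 7.89 CPM. None of the RNA sensors, guanylate-binding proteins or p200 members passed the fold in either direction, and of the other antiviral effectors none did, with Rsad2 (viperin, which makes a chain-ending nucleotide) at 57.9 against 84.9 CPM.

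In neutrophil-like cells 15 of 34 members were lower in KO at ligation 72 h, against 7.56% of all genes, and 1 was higher, against 9.65%. The medians were −0.44 and 0.03, and over the alternatives the member median lay between −0.55 and −0.40. Ifi27l2a had the lowest ratio, at 1015 CPM in KO and 4516 in WT (−2.15, −2.25 to −2.06). Rtp4, a negative regulator of the interferon response, was at 92.6 to 129 CPM in the 4 earlier libraries, 427 in WT ligation 72 h and 159 in KO ligation 72 h (−1.42, −1.69 to −1.16). Only the WT 72 h library stood far above the rest. Xaf1, which binds an apoptosis inhibitor, was at 37.3 against 107 CPM (−1.52, −2.10 to −0.99). Ifit3 had a log2 ratio of −1.27 (−1.50 to −1.05), Irf7 of −1.03 (−1.27 to −0.79) and Isg15 of −0.97 (−1.10 to −0.84). Gbp2 was the member higher in KO, at 82.5 against 49.8 CPM (0.73, 0.27 to 1.18). Cluster 2, led by Siglecf, Mmp9 and Csf3r, held 75.5% of WT and 75.1% of KO cells of the class at 72 h.

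In endothelial-like cells 16 of 34 were lower in KO at ligation 72 h, against 11.3% of all genes, and 1 was higher, against 11.8%, with medians of −0.40 and −0.07 (the member median was −0.93 by the mean over cells). All 4 IFIT members counted were lower. Rsad2 stood at 169 CPM in WT sham, 231 in KO sham, 131 in WT ligation 24 h, 151 in KO ligation 24 h, 186 in WT ligation 72 h and 79.8 in KO ligation 72 h. KO ligation 72 h was the lowest of the 6 libraries, and its log2 ratio to WT was −1.22 (−1.56 to −0.89). Bst2 was at 606.1 against 1085 CPM (−0.84, −0.96 to −0.72). KO cells of this class were mostly in cluster 11 (66.1%), led by Rflnb, Fscn1 and Trim37, and WT cells mostly in clusters 10 and 0.

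**Figure D3:**
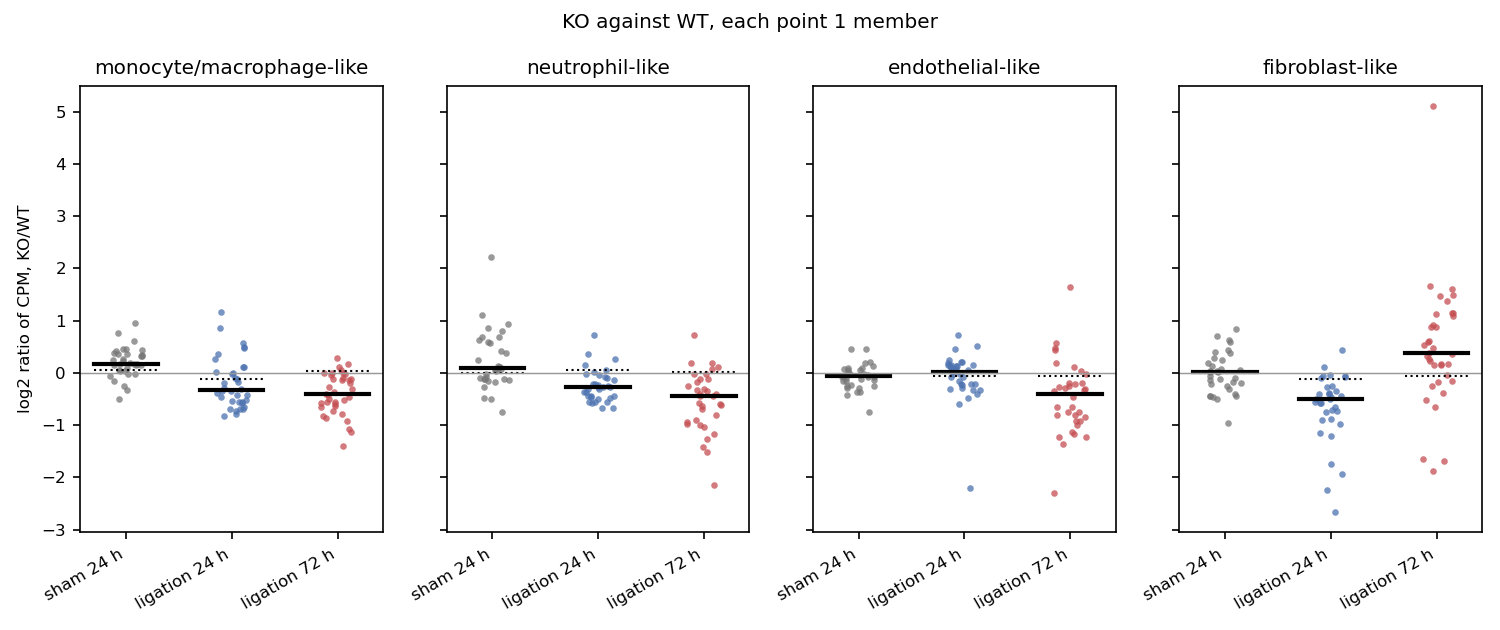
Log2 ratio of KO to WT for each member (point) at sham 24 h, ligation 24 h and ligation 72 h in the main classes, with the member median as a thick line and that of all genes dotted. Points below 0 are lower in KO; at ligation 72 h Irf7 and Ifit3 lie near −1 in both myeloid classes, while Irf9 lies at 0.28 in monocyte/macrophage-like cells.

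At ligation 24 h members lay on both sides of WT in KO, with the member median below that of all genes in both myeloid classes. In monocyte/macrophage-like cells 7 of 36 members were lower in KO, against 9.9% of all genes, and 2 were higher, against 4.51%, with medians of −0.32 and −0.12. Eif2ak2, the RNA-activated kinase PKR that halts translation, was at 30.9 CPM in WT sham, 29.9 in KO sham, 39.5 in WT ligation 24 h and 22.2 in KO ligation 24 h. KO ligation 24 h was the lowest of these, with a log2 ratio to WT of −0.83 (−1.05 to −0.62). Stat2 was likewise lower, at 15.5 against 26.6 CPM (−0.78, −1.04 to −0.52), and Slfn5 was at 110 against 181 CPM (−0.72, −0.82 to −0.63). Ifit1 went the other way, at 15 against 8.20 CPM (0.87, 0.48 to 1.27), and Isg15 was at 123.2 and 123.0 CPM.

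In neutrophil-like cells at ligation 24 h 2 of 34 members were lower in KO, against 7.52% of all genes, and 1 was higher, against 13.2%. The medians were −0.28 for the members and 0.06 for all genes, and over the alternatives the member median lay between −0.34 and −0.26. The lower members were Gbp7 (45.1 against 71.8 CPM) and Isg20 (146 against 233 CPM). In endothelial-like cells 2 were lower and 1 higher, against 9.65% and 5.98%, with medians of 0.01 and −0.06. Slfn5 there was at 348 against 529 CPM (−0.60, −0.72 to −0.48), the direction it had in monocyte/macrophage-like cells.

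In the sham libraries the main classes had 1 member at most lower in KO. In monocyte/macrophage-like cells 3 of 34 members were higher in KO, against 8.51% of all genes, and 0 lower, against 2.93%. Oas2 and Rsad2 were 2 of the 3, Oas2 with a log2 ratio of 0.96 (0.61 to 1.32). In neutrophil-like cells 9 of 32 were higher and 1 lower, against 9.24% and 7.33%. Ifit3b had the highest ratio there, 21.7 against 4.68 CPM, on few counts. These were 34 UMIs in 10 of 672 KO cells, 8 of them in 1 cell, and 10 UMIs in 9 of 882 WT cells. Ifit3b and Ifit3 share 4.47% of the 31-base stretches in the last 500 bases of Ifit3, and reads in those stretches cannot be assigned to 1 of them. In endothelial-like cells 0 were higher and 1 lower, against 2.91% and 7.06%. That member was Ifi27l2a, at 40.1 against 67.5 CPM. In fibroblast-like cells 4 of 33 were higher and 1 lower, against 7.11% and 5.65%. Within single clusters of the sham libraries, cluster 4 had 14 of 32 members higher in KO and 1 lower (median 0.55), against 6.32% and 5.23% of all genes there. Neutrophil-like cluster 14 had 11 of 23 higher and 0 lower, against 18% and 9.9%, and unnamed cluster 7 had 13 of 29 higher and 2 lower (median 0.46), against 6.37% and 13.8%. In the other 14 clusters with enough cells the sham medians lay between −0.29 and 0.28.

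The genotype comparison at ligation 72 h was repeated within single clusters, where both libraries had at least 50 cells. Within cluster 5, monocyte-like cells led by Plac8, Ly6c2 and Chil3, 25 of 37 members were lower in KO and 0 higher, against 6.07% and 6.82% of all genes (364 KO and 488 WT cells). The member median there was −0.84, beside 0.00098 for all genes. Within cluster 3 the median was −0.34, with 8 of 37 lower and 0 higher, against 4.91% and 7.36%. Within cluster 18, led by the cell cycle genes Birc5, Ube2c and Top2a, it was −0.24, with 10 of 36 lower and 2 higher, against 10.6% and 11.9%. Within cluster 4 it was −0.16, with 9 of 30 lower and 3 higher, against 10.8% and 12.1%. Cluster 7, led by H2-Ab1, H2-Aa and Cd209a and left unnamed, had a median of −0.34, with 10 of 37 lower and 1 higher, against 5.9% and 7.59%.

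Within neutrophil-like cluster 2 at 72 h the median was −0.58, with 17 of 34 lower and 1 higher, against 8.94% and 9.36%. Within neutrophil-like cluster 8, led by Tnf and Acod1, it was −0.23, with 10 of 32 lower and 4 higher, against 13% and 14.9%. The medians of these 7 clusters all lay below 0, and that of cluster 5 lay lowest. Within endothelial-like cluster 0, led by Timp4, Aqp1 and Fabp4, 13 of 24 members were lower in KO and 0 higher, against 16.4% and 11.6% (median −0.68, 50 KO and 75 WT cells). Within endothelial-like cluster 10, led by Apln, Pgf and Vwa1, 3 of 32 were lower and 5 higher, near the 14.2% and 14.1% of all genes (median 0.04).

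At ligation 24 h the medians of single clusters lay on both sides of 0. Within monocyte/macrophage-like cluster 4, 20 of 33 members were lower in KO and 0 higher (median −0.70), against 14.8% and 6.41% of all genes. Within cluster 5 the median was −0.18, with 2 of 34 lower and 2 higher, against 7.46% and 4.97%. Within neutrophil-like cluster 1, 13 of 33 were lower and 0 higher (median −0.43), against 8.56% and 11.5%. Within neutrophil-like cluster 14, led by Retnlg, S100a9 and Pglyrp1, 16 of 32 were higher and 0 lower (median 0.65), against 21% and 9.27%, and within cluster 2, on 54 WT cells, 9 of 22 were higher and 0 lower, against 16.7% and 17.5%. The neutrophil-like counts at ligation 24 h therefore pooled clusters with medians on either side of 0. Within endothelial-like cluster 6, 14 of 28 were lower and 1 higher, against 14% and 10.3%, and within endothelial-like cluster 10 the median was 0.42. Within fibroblast-like cluster 29, led by Cxcl5, Cxcl1 and Ptx3, 14 of 21 were lower and 0 higher, against 16.2% and 7.5%, and within fibroblast-like cluster 13 the median was −0.15. The differences between clusters were not tested.

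Whether members were spread over many cells or held by a few was read from cells thinned to 1000 UMIs each, with shallower cells left out. In neutrophil-like cells the share with 5 or more member UMIs was 19.1% in WT sham, 20% in WT ligation 24 h and 39.6% (36.4 to 42.9) in WT ligation 72 h. In KO it was 15.5%, 16% and 24.2% (20.1 to 28.7). The 72 h library was the highest of its genotype. The KO interval at 72 h overlapped those of WT sham (16.57 to 21.93) and WT ligation 24 h (17.71 to 22.45). Cells of 1 library are not replicates of a group, so the difference between genotypes was not tested. Before thinning the 72 h shares were 48.7% in WT and 36.1% in KO, at median depths of 2135 and 1973 UMIs. The 10% of neutrophil-like cells with the most member UMIs held 49.0% to 62.9% of them in each library. Within neutrophil-like cluster 2 the WT share at 72 h was 38.1% (34.5 to 41.8) and the KO share 20.1% (15.6 to 25.1).

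In monocyte/macrophage-like cells the share was 17.1%, 17.2% and 40.5% (38.3 to 42.7) in WT and 19.0%, 16.4% and 36.4% (34.0 to 38.8) in KO. Thinning left out 919 of 2544 KO and 31 of 2069 WT cells at 72 h, and the unthinned shares there were 58.9% in KO and 92.5% in WT. Without Ifi27l2a the 72 h shares were 23.1% in WT and 14.6% in KO, so the 2 genotypes were closer when that 1 gene was counted. In endothelial-like cells the WT shares were 25.7%, 18.2% and 36.8% (30.6 to 43.3), and the KO shares 23.3%, 15.1% and 23.4% (19.4 to 27.7). In smooth-muscle-like cells, where the members were low, 0 of 155 WT sham and 0 of 220 KO sham cells reached 5 UMIs, with upper bounds of 2.35% and 1.66%.

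**Figure D4:**
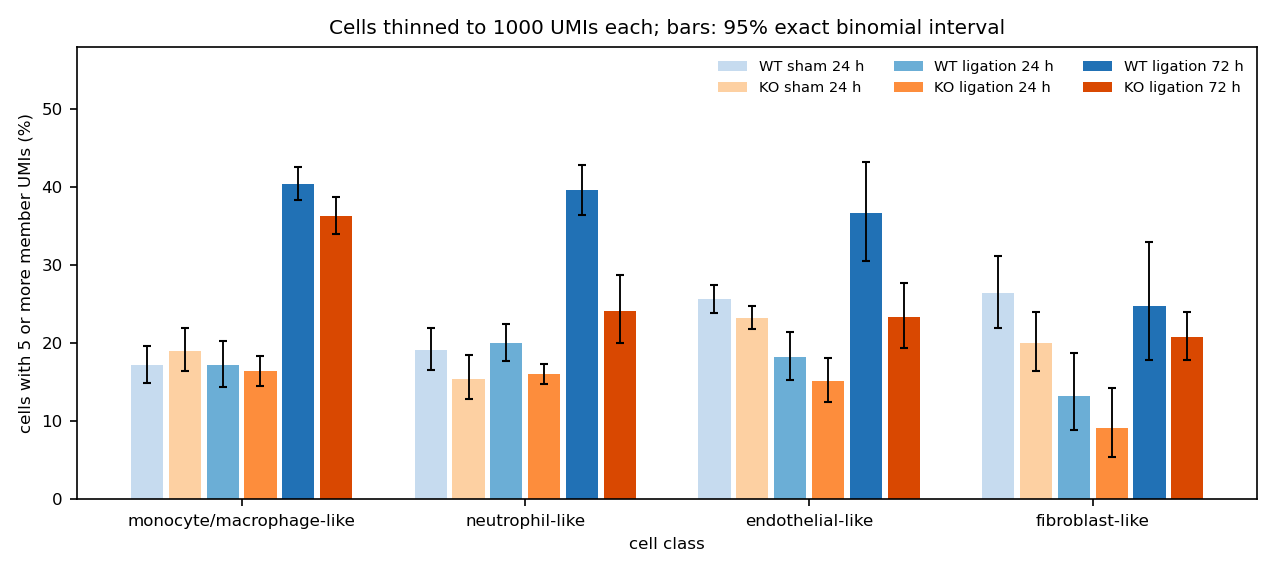
Percent of cells with 5 or more member UMIs after thinning every cell to 1000 UMIs, by library, in the main classes; bars are 95% exact binomial intervals for counting error only. The 72 h libraries are the highest of each genotype in both myeloid classes, at 39.6% in WT and 24.2% in KO for neutrophil-like cells.

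Fibroblast-like cells at ligation 24 h held members unevenly. In KO against WT 13 of 33 members were lower, against 15.4% of all genes, and 0 higher, against 4.6%, with medians of −0.50 and −0.12. Ifit3 stood at 31 CPM in WT sham, 27.1 in KO sham, 67.5 in WT ligation 24 h and 14.2 in KO ligation 24 h. KO against WT gave a log2 ratio of −2.25 (−2.82 to −1.72), and 88 of the 174 Ifit3 UMIs of WT ligation 24 h, the high library, were in 1 cell. A single WT cell of the 200 held 530 of the 3173 member UMIs other than those of Ifi27l2a (16.7%). It was also the one cell of this library with UMIs of Ifnb1, the gene of interferon beta: 31 Ifnb1 UMIs beside 34 members detected, in 16965 UMIs.

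Without the top cell of each library the fibroblast-like median at ligation 24 h was −0.38, beside −0.13 for all genes. Of 31 members 11 were lower and 0 higher, and the share of all genes is not given for this setting. Ifit3 kept a log2 ratio of −2.04 (−2.82 to −1.33), at 8.15 against 33.6 CPM, and WT ligation 24 h was then near the sham libraries. Isg15 moved from −0.45 (−0.75 to −0.16) to 0.14 (−0.20 to 0.48), and Rsad2 from −1.94 (−3.18 to −0.86) to −0.94 (−2.49 to 0.47). The direction of Isg15 thus rested on the top cells.

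At ligation 72 h fibroblast-like cells had a median of 0.37 in KO against WT, of the opposite sign to that of the other 3 main classes, with 15 of 36 members higher in KO, against 18.6% of all genes, and 4 lower, against 15.6%. Trim30a was at 50.1 against 16.5 CPM and Rsad2 at 24.5 against 7.76 CPM. Markers of other classes moved with this. The summed level of C1qa, C1qb and C1qc, complement genes of macrophages, was in fibroblast-like cells 35.5% of its level in monocyte/macrophage-like cells of KO ligation 72 h and 0.162% in WT ligation 72 h. By the share of Lyz2 it was 37.4% and 2.44%. In the other 4 libraries the C1q share in fibroblast-like cells was 0.109% to 1.03%.

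Counts of the myeloid classes were subtracted in proportion to the levels of C1qa, C1qb and C1qc and of S100a8 and S100a9, a step chosen after seeing the data. Myeloid RNA found in other classes is called carried here as a name only, because its source was not tested. The summed member level of fibroblast-like cells in KO ligation 72 h was then 1452 CPM, down from 2542, and in WT ligation 72 h 2192, from 2218. The median log2 ratio of KO to WT went from 0.37 to −0.62, with 17 of 33 members lower and 1 higher. Counts after subtraction have no share of all genes beside them, so they are not set against a background. For 72 h against 24 h in KO the member median went from 0.87 to −0.36. Trim30a and Rsad2 changed sign as well, to −3.29 and −2.07. Both values have no interval and rest on the few KO counts that the subtraction left, so their size is not read. Within cluster 12, without subtraction, the median was 0.27, with 14 of 32 members higher in KO and 3 lower, against 16.2% and 10.3% of all genes.

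The same measure for endothelial-like cells was 14.7% by C1q and 20.5% by Lyz2 in KO ligation 72 h, and 4.72% and 1.62% in WT. Ifi27l2a was the member higher in KO there, at 539.4 against 171.8 CPM, and after subtraction its WT ratio of 72 h to 24 h went from 2.09 to −0.15. The median of KO against WT at 72 h went from −0.40 to −0.62. Of 34 members 17 were then lower and 2 higher, again without a share of all genes beside them. Neutrophil-like cells had a C1q share of 3.90% in KO and 0.536% in WT at 72 h, so a level of the members carried at that share would be 3.13% and 0.286% of what was measured.

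**Figure D5:**
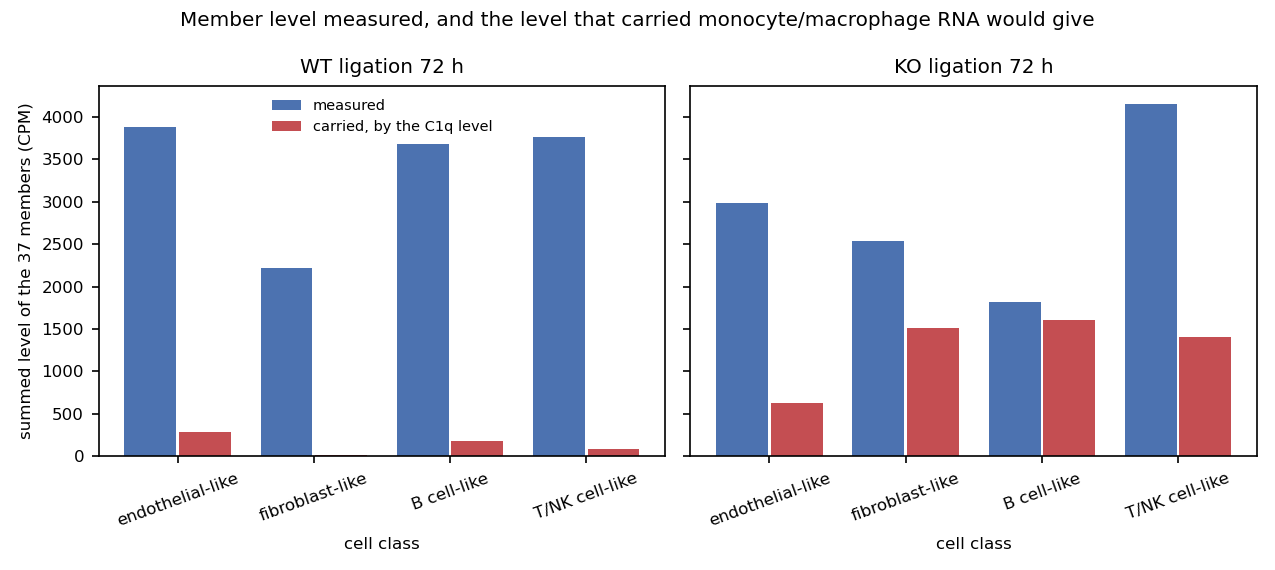
Summed level of the 37 members (CPM, axis from 0) as measured and as carried monocyte/macrophage RNA would give it at the C1q share, in 4 classes of the ligation 72 h libraries. In KO the carried level is 1512 of 2542 CPM in fibroblast-like cells and 1607 of 1823 in B cell-like cells, while in WT it is at most 284 CPM.

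The smaller classes gave fewer members. In B cell-like cells 12 of 17 members were lower in KO at ligation 72 h, against 19.3% of all genes, and 1 was higher, against 17.3%, with a median of −0.89 and summed levels of 1823 against 3679 CPM. The C1q share was 37.7% in KO and 2.95% in WT. In T/NK cell-like cells 5 of 22 were lower and 4 higher, against 17.5% and 18.7%, with a C1q share of 32.9% and 1.43%. In pericyte-like cells at ligation 24 h 9 of 15 were lower in KO and 1 higher, against 12.7% and 16.2%, on 91 KO and 54 WT cells, with a C1q share of 0.509% in KO and 20.7% in WT. The part of this macrophage signal in the difference was not tested. Smooth-muscle-like cells held 372 to 523 CPM of the 37 members in the 4 sham and 24 h libraries, against 1356 or more in every library of each main class. Cells with cardiomyocyte markers in KO ligation 72 h held 2397 CPM, with a C1q share of 60.9%, against 239.5 CPM and 9.55% in WT.

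Interferon genes themselves were rarely caught. Ifnb1 was seen in 2 cells of all libraries, both fibroblast-like, with 31 UMIs in 1 WT ligation 24 h cell and 11 in 1 KO ligation 72 h cell. The KO cell held 71 member UMIs of 3233, from 7 members. Ifng, the type II interferon of lymphocytes, had 4 UMIs in WT sham, 3 in KO sham, 6 in WT ligation 24 h, 3 in KO ligation 24 h, 25 in WT ligation 72 h and 11 in KO ligation 72 h, most of them in T/NK cell-like cells. There 1 cell held 15 of the 23 UMIs of WT ligation 72 h, and 1 cell all 6 of WT ligation 24 h. At 72 h Ifng was seen in 8 of 91 WT and 8 of 176 KO cells of that class. Ifna2 had 1 UMI, in KO ligation 24 h.

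The rest of the pathway was described by 6 lists with 111 genes. Of the 4 receptor genes none passed the fold between genotypes in monocyte/macrophage-like or neutrophil-like cells. Ifnar2 in monocyte/macrophage-like cells was at 189.1, 153.5 and 248.3 CPM in WT sham, ligation 24 h and ligation 72 h, and at 189.7, 188.8 and 245.4 in KO. Of 9 kinases and transcription factors 1 was higher and 0 lower in KO at 72 h in that class, and of 6 measured inhibitors 0 were higher and 1 was lower. Of 10 measured nucleic acid sensors and adaptors 0 passed the fold in either direction.

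The list of 71 other interferon-induced genes was counted in the same way. At 72 h against 24 h in monocyte/macrophage-like cells 35 of 68 were higher and 4 lower in WT (median 0.62), against 24.4% and 17.3% of all genes, and 33 of 67 were higher and 2 lower in KO (0.56), against 23.2% and 7.27%. In KO against WT at 72 h 2 of 68 were higher and 6 lower, with a median of −0.12, against 11% and 3.94%. In neutrophil-like cells 15 of 56 were lower in KO at 72 h and 1 was higher, with a median of −0.34, against 7.56% and 9.65%. These lists were not tested against the members.

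Outside the module, the gene whose level followed the member mean most closely over 51 points of class and library was Rnf213, a ubiquitin ligase (Pearson r 0.90 on log2(CPM + 10), among 11123 genes). It was followed by Klf10 (0.84), Irgm1 (0.83), Tapbp (0.82), Ddx60 (0.82), Ostf1 (0.82), Adar (0.82), Sptlc2 (0.81), Dtx3l (0.80) and Mov10 (0.80). Of these Rnf213, Irgm1, Adar, Dtx3l and Mov10 were in the list of other interferon-induced genes. Among the members themselves Rtp4 (0.94), Irf7 (0.92) and Usp18 (0.89) followed the mean most closely, and Ifi205 (0.14) and Phf11d (0.27) least. The points share libraries, depth and carried RNA, so these values describe likeness in these 6 libraries.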

How the data were processed

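The authors deposited a count matrix of UMIs per gene and cell barcode for each of 6 libraries, made with Cell Ranger 6.0.0 and the mm10 build per the submitters' processing notes. The 3-prime chemistry reads 1 end of a transcript, so genes with stretches in common there, as Ifit3 and Ifit3b have in small part, can share reads. Counts were used as deposited, as whole numbers. Cells with fewer than 200 genes or over 20% mitochondrial UMIs were left out, and in each library the highest Scrublet scores were removed at 0.8% per 1000 cells (1653 cells), because the automatic threshold marked only 0 to 50 cells a library. Cells were clustered with scanpy 1.11.5 and leidenalg 0.10.2 (2000 variable genes, 30 components, resolution 1), with the members and pathway genes left out of the variable genes. Of 34 clusters 32 were named from markers, as 12 classes, and 2 stayed unnamed (1654 cells); other names may be given by another clustering.

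Counts were summed per class and library and given as CPM of the class total, for classes with at least 50 cells. Log2 ratios have 95% exact binomial intervals, CPM exact Poisson intervals (scipy 1.17.1), and a count of 0 was set to 3 counts; these cover counting error only. The ratio and interval code was tested on simulated data. Members named per comparison are the 3 highest and the 3 lowest ratios, and the member of each role group with the highest CPM in monocyte/macrophage-like cells of WT ligation 72 h; members followed across classes beside these, and the examples of a lost or kept value, were chosen after their values were seen. The members and lists were chosen with earlier results of these data known. Promoters are those of RefSeq for GRCm38.p6; 9 members were not matched. Alternatives changed the clustering, the doublet, depth, mitochondrial and count filters, the cell weighting, the scaling and the fold. Subtraction of carried RNA, leaving out clusters mostly (over 75%) from 1 library, leaving out Ifi27l2a, values within clusters and values without each library's top cell were added after seeing the data.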

Additional observations from a re-analysis of the deposited data

Results flagged for a closer look

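Member medians (log2) had opposite signs in WT and KO in 4 comparisons, and none of these differences was tested. In monocyte/macrophage-like cells, ligation 24 h against sham was 0.51 in WT and −0.15 in KO; relative to the median gene these were 0.65 and 0.16, of the same sign. In endothelial-like cells, ligation 72 h against 24 h was 0.44 in WT and −0.23 in KO (0.58 and −0.12 relative to the median gene). In fibroblast-like cells, ligation 24 h against sham was 0.01 in WT and −0.51 in KO (0.08 and −0.28), and ligation 72 h against 24 h was −0.22 in WT and 0.87 in KO (0.06 and 1.04). The last KO value is the one that became −0.36 once carried myeloid RNA was subtracted. The fibroblast-like WT value of 0.01 for ligation 24 h against sham lay between −0.29 and 0.1 over the alternatives, so its sign is not settled.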

How the results depend on the processing

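With 1 library a group, depth limits only the counting error, and the spread between mice is unknown. Of 290 values of the 28 medians under 11 alternatives, 281 were labelled the same within counting error, 8 moved and 1 reversed. These labels do not count sign changes. Among the moved medians, that of fibroblast-like KO against WT at 72 h went from 0.37 to −0.20 and to −0.62. Medians near 0 could change sign and still be labelled the same, as from 0.02 to −0.03 for fibroblast-like KO against WT in sham. The cause of each change was not tested. Relative to the median gene, the monocyte/macrophage-like median of ligation 24 h against sham in KO was 0.16, and the neutrophil-like medians of 72 h against 24 h were 0.26 in WT and 0.09 in KO. By the mean over cells, the endothelial-like medians were −0.93 for KO against WT at 72 h and 0.86 for 72 h against 24 h in WT, and the fibroblast-like median of KO against WT at 72 h was −0.20. With carried myeloid RNA subtracted, the fibroblast-like medians were −0.62 for KO against WT at 72 h and −0.36 for 72 h against 24 h in KO. Without clusters mostly from KO ligation 72 h, the fibroblast-like median of 72 h against 24 h in WT was 1.24, over 50 WT cells at 72 h. Of single members, Slfn5 in monocyte/macrophage-like cells (KO against WT at 72 h) was −0.0048 by the mean over cells and −0.30 thinned, and Sp100 −0.06 thinned. In endothelial-like cells Trim30a was −0.29 thinned and −0.07 subtracted, Ifih1 in WT over time 0.37 thinned and Ifi27l2a −0.15 subtracted. In fibroblast-like cells Rsad2 was −2.07 and Trim30a −3.29 subtracted, both on few KO counts left. Over time in WT Cmpk2 was 0.49 and Ifit3 0.46 without those clusters. At a 2-fold threshold 35 of 56 counts moved by over 1.5 times. At 72 h the members lower in KO were 3 in monocyte/macrophage-like, 6 in neutrophil-like and 7 in endothelial-like cells. Those higher than at 24 h in KO were 18, 13 and 14 in monocyte/macrophage-like, neutrophil-like and fibroblast-like cells. Shares of all genes were given at 1.5-fold only, so the 2-fold counts are not set against a background. Thinning gave no value for fibroblast-like KO against WT at 24 h or 72 h against 24 h in WT, nor did leaving out those clusters for KO against WT at 72 h or 72 h against 24 h in KO. No paired analysis was possible because each group had 1 library.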
